A study of Homo sapiens with 20 samples.

Results

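The subunits of RNA polymerases I, II and III were followed across polysome fractions in BE(2)-C cells, an established MYCN-amplified human neuroblastoma line. Members were all array clusters whose gene symbol is POLR1, POLR2 or POLR3 followed by a letter, which gave 30 genes among 21448 transcript clusters tested. There were 8 POLR1, 13 POLR2 and 9 POLR3 symbols. The A and B subunits of each enzyme, which together build its catalytic core, made up the 6 large subunits. The other 24 members were taken as small subunits, whatever their length. No member was repeated on the array, and none lay among the dimmest 25% of clusters. POLR2F, POLR2M and POLR2J2 were not analysed here.

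Cells were transfected for 48 h with lncNB1 siRNA-1, lncNB1 siRNA-2 or control siRNA, where lncNB1 is a long noncoding RNA, and all of them were then exposed to cycloheximide, which holds ribosomes on mRNA, before fractionation on sucrose gradients. RNA of heavy polysomes (mRNA carrying many ribosomes) and of light polysomes (mRNA carrying few) was hybridized to Clariom S arrays. Each fraction had 3 arrays for siRNA-1, 3 for siRNA-2 and 4 for control, or 20 arrays in 6 groups. The heavy and light arrays sharing an siRNA and replicate number were taken as 1 of 10 transfections. Replicates were numbered 1, 2 and 4 for siRNA-1, 1, 2 and 3 for siRNA-2, and 1, 2, 3 and 4 for control. Comparisons between siRNA groups thus partly compare different replicate numbers, and siRNA and replicate cannot be fully told apart in them. All samples came from 1 cell line, and nothing in the labels states that replicates were separate cultures, so the p-values below cover the spread among these arrays alone, part of which may be technical.

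RNA polymerase I transcribes the large ribosomal RNA precursor in the nucleolus, RNA polymerase II transcribes mRNA, and RNA polymerase III transcribes transfer RNA, 5S ribosomal RNA and other short RNAs. Each enzyme has a pair of large subunits that form the active site, a platform of smaller subunits on which the enzyme is assembled, a stalk that protrudes near the RNA exit, and small subunits that all of the enzymes hold in common. Ribosomes load on an mRNA along its coding region, so a short coding region has room for few ribosomes, and polysome fractions separate mRNAs by ribosome number. Coding lengths were not used here, and their part in the differences below was not tested.

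Values are log2 signals after quantile normalization, which gives arrays a common distribution. Each value is therefore relative to the other mRNAs of its fraction. In such bulk samples fewer cells holding an mRNA and less of it per cell cannot be told apart. Array medians lay between 6.58 and 6.68. The 9 adrenergic neuroblastoma markers measured lay at percentiles 60.8 to 99.9 of cluster levels (median 90.8), against 2.71 to 61.8 for 4 Schwann cell markers, 46.1 to 77.9 for 5 mesenchymal markers and 14.3 to 50.7 for 3 leukocyte markers. The level of lncNB1 itself was not analysed here. The replicate 1 transfections stood apart: regressed across all clusters on the mean of the other transfections, their heavy minus light differences had slopes of 0.527 to 0.727, against 0.900 to 1.38 in the others. The counts and the calls of single members that changed without them are given beside the results.

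Across the mean of the 3 siRNA groups, 22 of the 30 subunit mRNAs differed between heavy and light polysomes (limma, Benjamini-Hochberg adjusted p under 0.05 over all clusters), where 43.2% of all clusters did. Of these, 13 were higher in heavy polysomes (22.4% of all clusters) and 9 were lower (20.7% of all clusters). Without replicate 1 of every group, 11 members were higher and 9 lower. The median difference was 0.19 for the members and -0.02 for all clusters. All 6 large subunits were higher in heavy polysomes, whereas the small subunits divided into 7 higher, 9 lower and 8 that were not called. The difference ran from 0.94 for POLR2A down to -1.90 for POLR2K.

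**Figure D1:**
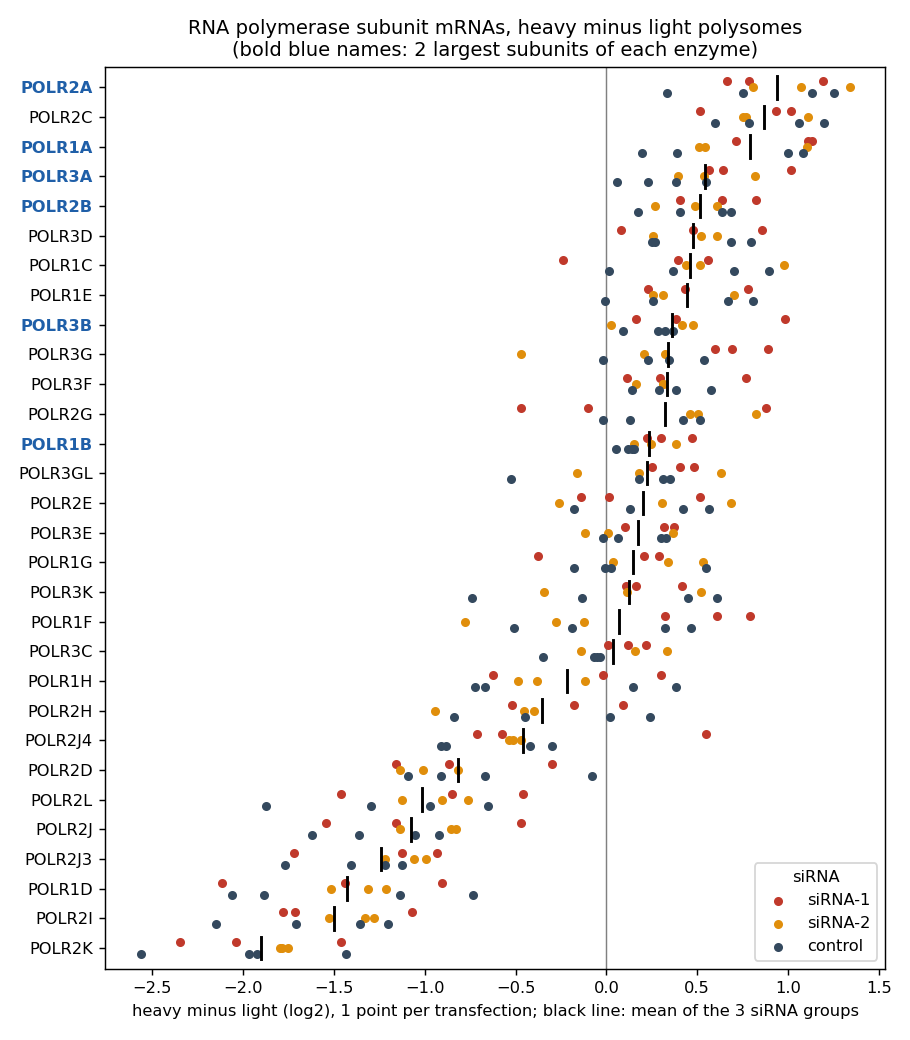
Heavy minus light log2 difference (horizontal axis) of the 30 subunit mRNAs, sorted by the mean of the 3 siRNA groups (black lines), with 1 point for each of the 10 transfections, coloured by siRNA. The 6 large subunits, in bold blue, all have means above 0, and POLR2K, POLR2I and POLR1D lie farthest to the left.

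POLR2A encodes the largest subunit of RNA polymerase II, whose repetitive C-terminal tail is phosphorylated during the transcription cycle. Its log2 signal was 8.90 to 9.87 in heavy polysomes (median 9.14, n = 10) and 7.90 to 8.57 in light polysomes (median 8.32, n = 10). Every heavy array was above every light array, and the difference was 0.94 ± 0.10 (SE), or 1.92-fold, with a limma adjusted p = 2.03e-06. Its partner POLR2B, the second-largest subunit, had 10.45 to 10.93 in heavy (median 10.73) and 10.08 to 10.32 in light polysomes (median 10.20), again without overlap, and differed by 0.52 ± 0.08 (limma adjusted p = 5.68e-05).

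POLR1A, the largest subunit of RNA polymerase I, ranged from 8.25 to 8.92 in heavy (median 8.46) and from 7.25 to 8.37 in light polysomes (median 7.60). The arrays overlapped between fractions, although heavy exceeded light in all 10 transfections, and the difference was 0.79 ± 0.10 (limma adjusted p = 1.34e-05). POLR3A and POLR3B, the core of RNA polymerase III, were higher in heavy polysomes by 0.54 ± 0.08 and 0.36 ± 0.09 (limma adjusted p = 4.17e-05 and 0.00302). POLR1B had the smallest difference of the large subunits, 0.24 ± 0.07, and its call was lost without replicate 1 of every group (0.22, limma adjusted p = 0.0517), although it too was higher in heavy polysomes in 10 of 10 transfections.

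Among the small subunits, POLR2C stood on the same side as the large ones. It encodes a platform subunit that pairs with POLR2J during assembly of RNA polymerase II. Its signal was 9.44 to 10.32 in heavy (median 10.09) and 8.88 to 9.43 in light polysomes (median 9.11). Heavy and light arrays did not overlap, and the difference of 0.87 ± 0.08, or 1.83-fold (limma adjusted p = 1e-06), was second to that of POLR2A. POLR2A, POLR2B and POLR2C were the 3 members whose heavy arrays all exceeded their light arrays, a separation that 4.28% of all clusters showed.

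The opposite order was found for POLR2K, the zinc-binding small subunit held by all of the enzymes. Its signal was 8.22 to 8.97 in heavy (median 8.55) and 10.12 to 10.88 in light polysomes (median 10.42). The 2 ranges were far apart, and POLR2K was lower in heavy polysomes by 3.73-fold, a log2 difference of -1.90 ± 0.11 (limma adjusted p = 4.14e-08), at rank 17 from the lowest of 21448 clusters. POLR2L, another subunit of all the enzymes, had 7.94 to 8.57 in heavy (median 8.25) and 8.95 to 9.81 in light polysomes (median 9.23), with no overlap, and a difference of -1.02 ± 0.12 (limma adjusted p = 4.88e-06).

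POLR2I, a small zinc-binding subunit of RNA polymerase II linked to transcript cleavage, had 7.90 to 8.56 in heavy (median 8.27) and 9.44 to 10.05 in light polysomes (median 9.76). Its difference was -1.50 ± 0.10, or 2.83-fold lower in heavy polysomes (limma adjusted p = 6.48e-08). POLR1D, an assembly platform subunit of RNA polymerases I and III, had 7.40 to 8.27 in heavy (median 7.98) and 8.92 to 9.59 in light polysomes (median 9.30), a difference of -1.43 ± 0.13 (limma adjusted p = 7.59e-07). Neither gene had a heavy array that reached its lowest light array. POLR1C, the platform partner of POLR1D in the same enzymes, was instead higher in heavy polysomes by 0.46 ± 0.10 (limma adjusted p = 0.00185).

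POLR2J, the platform partner of POLR2C, had 10.29 to 11.15 in heavy (median 10.71) and 11.55 to 12.07 in light polysomes (median 11.79), with no overlap and a difference of -1.08 ± 0.10 (limma adjusted p = 9.24e-07). Its near-identical copies POLR2J3 and POLR2J4 were also lower in heavy polysomes, by -1.24 ± 0.09 and -0.46 ± 0.11 (limma adjusted p = 1.06e-07 and 0.00334). Because the copies can share probe sequence, signals of the 3 genes are uncertain as separate measurements. The copies are members by symbol alone, and whether POLR2J3 and POLR2J4 encode a subunit was not examined here. POLR2J3 was among the 6 members (with POLR1D, POLR2I, POLR2J, POLR2K and POLR2L) whose heavy arrays were all below their light arrays, as in 4.09% of all clusters.

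**Figure D2:**
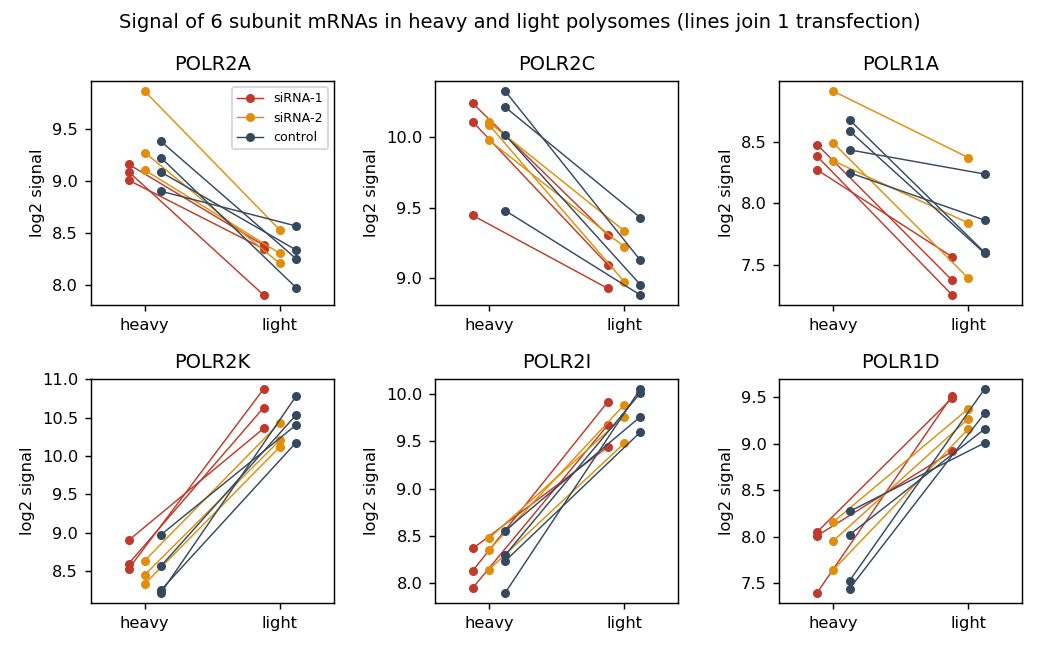
Log2 signal (vertical axes) of 6 subunit mRNAs in heavy (left) and light (right) polysomes, with a line joining both fractions of each of the 10 transfections, coloured by siRNA. POLR2A, POLR2C and POLR1A are higher in heavy polysomes in every transfection, and POLR2K, POLR2I and POLR1D are lower there in every transfection.

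The remaining called members had smaller differences. POLR2D, which forms the stalk of RNA polymerase II with POLR2G, was lower in heavy polysomes by -0.82 ± 0.10 (limma adjusted p = 1.31e-05) and in all 10 transfections, though its arrays overlapped between fractions. POLR2G was on the other side, at 0.32 ± 0.11 (limma adjusted p = 0.0292), and this call did not hold without siRNA-1 replicate 1 (0.19), control replicate 2 (0.30), control replicate 4 (0.29), siRNA-2 replicate 2 (0.28) or replicate 1 of every group (0.22). POLR2H, a subunit of all the enzymes, had -0.35 ± 0.11 (limma adjusted p = 0.0132), and was not called without siRNA-2 replicate 3 (-0.30, limma adjusted p = 0.0515).

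Among subunits particular to RNA polymerase III, POLR3D, POLR3F and POLR3G were higher in heavy polysomes, by 0.48 ± 0.09, 0.33 ± 0.08 and 0.34 ± 0.09 (limma adjusted p = 0.000425, 0.00266 and 0.0053). POLR3D and POLR3F take part in the heterodimer and heterotrimer that assist initiation and termination, and POLR3G and POLR3GL are alternative forms of 1 subunit. POLR1E, an RNA polymerase I subunit of the dimer that aids initiation and elongation, was higher by 0.44 ± 0.09 (limma adjusted p = 0.00108). The 8 members not called were POLR1F, POLR1G, POLR1H, POLR2E, POLR3C, POLR3E, POLR3GL and POLR3K, with differences between -0.22 (POLR1H) and 0.22 (POLR3GL), and POLR2E and POLR3GL were called as higher without siRNA-2 replicate 3 (0.29 for each), as was POLR3GL without control replicate 3 (0.29).

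By enzyme, the 9 POLR3 symbols held 5 mRNAs higher in heavy polysomes and 0 lower (limma), and at an unadjusted p under 0.05, which 49.3% of all clusters passed, 7 were higher and 0 lower. The 13 POLR2 symbols held 4 higher and 8 lower, and the 8 POLR1 symbols 4 higher and 1 lower, where 22.4% of all clusters were higher and 20.7% lower. Of the 4 measured subunits that all of the enzymes hold, 3 (POLR2H, POLR2K and POLR2L) were lower and POLR2E was not called, at 0.20 ± 0.10. CRCP, an RNA polymerase III subunit named outside the POLR series, was lower in heavy polysomes by -0.67 ± 0.11 (limma adjusted p = 0.000127). The sign of the difference was the same in all 10 transfections for 9 members on the heavy side (14.1% of all clusters) and for 7 on the light side (10.4% of all clusters).

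Sequence around the annotated transcription start was read for 21 members, from RefSeq (GRCh38.p14). Of the 9 members whose heavy and light arrays did not overlap, 5 have an entry. The 30 bases before and the first 30 bases after their starts are shown, to set mRNAs higher in heavy polysomes (POLR2A, POLR2B and POLR2C) beside mRNAs lower there (POLR1D, with 2 annotated starts, and POLR2L). Capitals mark the first ATG after the start where it falls in the window.
POLR2A (chr17:7484336-7484395, plus strand): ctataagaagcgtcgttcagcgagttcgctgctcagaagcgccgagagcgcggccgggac
POLR2B (chr4:56978866-56978925, plus strand): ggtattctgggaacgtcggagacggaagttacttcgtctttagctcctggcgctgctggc
POLR2C (chr16:57462649-57462708, plus strand): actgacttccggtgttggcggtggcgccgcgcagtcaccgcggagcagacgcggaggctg
POLR1D first start (chr13:27620713-27620772, plus strand): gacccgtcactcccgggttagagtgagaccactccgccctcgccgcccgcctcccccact
POLR1D second start (chr13:27621862-27621921, plus strand): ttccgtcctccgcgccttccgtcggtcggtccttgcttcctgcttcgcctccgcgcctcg
POLR2L (chr11:842500-842559, minus strand): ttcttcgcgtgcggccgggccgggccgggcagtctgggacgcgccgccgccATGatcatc
Among these windows, that of POLR2L had an ATG in its first 30 transcribed bases, beginning at base 22, and the others had none. In the first 50 transcribed bases an ATG, which need not be the one that starts the protein, was found in a window of 9 of the 21 members (42.9%), namely POLR1B, POLR1C, POLR1D, POLR1F, POLR2C, POLR2L, POLR3A, POLR3E and POLR3K, against 42.6% of 14250 genes on the array with a window, a share near that of all genes.

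CACGTG, the word best known as a binding sequence of Myc proteins and the same on both strands, was looked for because the cells are MYCN-amplified. It was in the window of 250 bases before to 50 bases after the start of 4 of 21 members (19.0%), against 10.8% of the 14250 genes, where a gene with several windows counts once if any of them holds the word. Those were POLR1G, POLR3A, POLR3C and POLR3E. Of the other members that appear among the knockdown results below, POLR3GL and POLR3K had a window without the word, and POLR2G and POLR3G had no window. A link between the word and knockdown was not tested. The first 3 genes with the word are shown, with it in capitals, since they appear again among the knockdown results.
POLR1G (chr19:45406612-45406657, plus strand): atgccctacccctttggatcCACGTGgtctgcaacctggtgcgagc
POLR3A (chr10:78029525-78029570, minus strand): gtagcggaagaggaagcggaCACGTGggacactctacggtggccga
POLR3C (chr1:145823984-145824029, plus strand): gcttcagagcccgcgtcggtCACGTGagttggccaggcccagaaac
The word began at position -12 from the start in POLR1G, -35 in POLR3A and -196 in POLR3C. The words TTTGGCGC, TTTCCCGC and TTTCGCGC, forms of the binding sequence of E2F proteins, were looked for on both strands. TTTGGCGC was found for 0 members (1.04% of genes), TTTCCCGC for 1, POLR2A (2.68% of genes), and TTTCGCGC for 1, POLR1F (0.905% of genes). A match of letters is no measurement of binding.

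The large and small subunits were then set against each other within each transfection, as the mean heavy minus light difference of the 6 large members minus that of the 24 small ones. The difference was positive in all 10 transfections. It was 0.62, 0.77 and 1.22 for siRNA-1, 0.62, 0.86 and 0.96 for siRNA-2, and 0.40, 0.61, 0.89 and 1.04 for control. The siRNA groups overlapped throughout, with means of 0.87 ± 0.32 (SD, n = 3) for siRNA-1, 0.81 ± 0.17 (SD, n = 3) for siRNA-2 and 0.74 ± 0.29 (SD, n = 4) for control. No test was made of these means, since the members were chosen with results known.

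The lowest value of each group was that of its replicate 1. Without the replicate 1 transfections the mean over the other 7 was 0.91 ± 0.20 (SD), against 0.80 ± 0.24 (SD, n = 10) with them. The large mean was 0.55 ± 0.18 (SD, n = 10) and the small mean -0.25 ± 0.13 (SD, n = 10). Each of the 6 large subunits was above 0 in each of the 10 transfections, while between 7 and 15 of the 24 small subunits were. The small mean combines members of opposite sign: with medians over members the difference was 0.61 for siRNA-2 and 0.43 for control. For the mean of the siRNA groups, the median of the small members was -0.82 for POLR2 symbols, but 0.11 for POLR1 and 0.22 for POLR3 symbols.

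**Figure D3:**
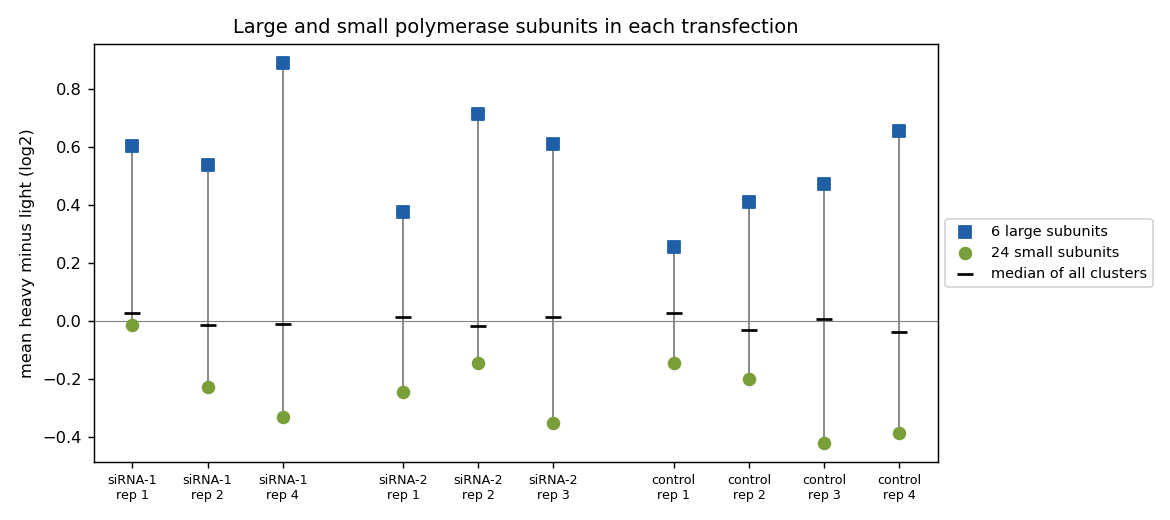
Mean heavy minus light log2 difference (vertical axis) of the 6 large subunits (blue squares) and the 24 small subunits (green circles) in each of the 10 transfections, with the median of all clusters as a black dash. The squares lie above the circles in every transfection, by 0.40 (control replicate 1) to 1.22 (siRNA-1 replicate 4).

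Across the 6 siRNA by fraction groups, the mean level of the large subunits was 8.42 ± 0.07 in siRNA-1 heavy, 8.45 ± 0.25 in siRNA-2 heavy and 8.34 ± 0.14 in control heavy arrays (SD). It was 7.74 ± 0.14 in siRNA-1 light, 7.89 ± 0.22 in siRNA-2 light and 7.89 ± 0.07 in control light arrays (SD). Every heavy group was above every light group for the large subunits. The small subunits averaged 8.46 ± 0.02, 8.53 ± 0.08 and 8.53 ± 0.03 in siRNA-1, siRNA-2 and control heavy arrays, and 8.65 ± 0.18, 8.77 ± 0.03 and 8.81 ± 0.11 in siRNA-1, siRNA-2 and control light arrays (SD). These means pool different probes and serve only to compare groups within a class.

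Both directions were found again within single siRNA groups. In siRNA-1 cells 11 members were higher (16% of all clusters) and 7 lower (12.1%) in heavy than in light polysomes, in siRNA-2 cells 7 were higher (11.5%) and 8 lower (10.6%), and in control cells 8 were higher (14.5%) and 8 lower (12.8%). Without replicate 1 of every group these counts were 10 and 8 in siRNA-1, 8 and 8 in siRNA-2, and 8 and 8 in control cells. The same 11 members were called in each of the groups, POLR1A, POLR2A, POLR2B and POLR2C as higher and POLR1D, POLR2D, POLR2I, POLR2J, POLR2J3, POLR2K and POLR2L as lower. The share of all clusters called in every group was not counted, so this number has no background beside it. For POLR2K the difference was -1.95 ± 0.19 in siRNA-1, -1.78 ± 0.19 in siRNA-2 and -1.97 ± 0.16 in control cells (SE), and for POLR2A it was 0.88 ± 0.18 in siRNA-1, 1.07 ± 0.18 in siRNA-2 and 0.87 ± 0.15 in control cells (SE). Counts on the higher side depended on single transfections: they were 5 without siRNA-1 replicate 4, 2 and 4 without siRNA-2 replicates 2 and 3, and 5, 3 and 2 without control replicates 2, 3 and 4.

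Whether lncNB1 knockdown moved the subunit mRNAs between fractions was asked by comparing the heavy minus light difference between siRNA groups. No member passed the threshold for the mean of both siRNAs, for siRNA-1 or for siRNA-2 against control, or for siRNA-1 against siRNA-2 (limma), and neither did any of the 21448 clusters (0%). At an unadjusted p under 0.05 there was 1 member for the mean of both siRNAs (2.86% of all clusters), 3 for siRNA-1 (5.62%), 0 for siRNA-2 (2.53%) and 2 for siRNA-1 against siRNA-2 (7.7%). POLR3A was that 1 member, with a shift towards heavy polysomes of 0.36 ± 0.16 (95% confidence interval 0.02 to 0.70). The median standard error of these shifts over the members was 0.20, so that shifts of such a size were not detectable with 10 transfections.

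The largest single shift between the siRNAs was that of POLR1F, a stalk subunit of RNA polymerase I. Its heavy minus light difference was 0.58 ± 0.19 in siRNA-1, -0.39 ± 0.19 in siRNA-2 and 0.02 ± 0.16 in control cells (SE). The shift of siRNA-1 minus siRNA-2 was 0.97 ± 0.26, with a limma adjusted p = 0.494. In control replicates 1, 2, 3 and 4 the POLR1F difference was 0.32, 0.46, -0.51 and -0.19. It was 0.79, 0.32 and 0.61 in siRNA-1 replicates 1, 2 and 4, and -0.28, -0.12 and -0.78 in siRNA-2 replicates 1, 2 and 3. Replicate 3 was absent for siRNA-1 and replicate 4 for siRNA-2, and a part of replicate number in this shift was not tested.

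Knockdown was next compared with control within each fraction. For the mean of both siRNAs no member passed the threshold in heavy polysomes, where 1.62% of all clusters did, or in light polysomes, where 2.95% did (limma). At an unadjusted p under 0.05 there were 6 members in heavy (13.9% of all clusters) and 5 in light polysomes (15.4%). Among them POLR3G had -0.36 ± 0.10 in heavy (limma adjusted p = 0.0829) and -0.46 ± 0.13 in light polysomes (limma adjusted p = 0.0771), and POLR3K, a small zinc-binding subunit of RNA polymerase III involved in transcript cleavage and termination, had -0.49 ± 0.13 in light polysomes (limma adjusted p = 0.0576). The comparisons of siRNA-1 and of siRNA-2 share the 4 control arrays of a fraction. All of these fits lack a term for the replicate number. With such a term (a replicate block) some members passed the threshold for the mean of both siRNAs, as given at the end.

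With siRNA-1 in heavy polysomes 3 members were called, where 8.91% of all clusters were. POLR3GL had log2 signals of 7.06, 7.44 and 7.24 in siRNA-1 heavy arrays, 6.47, 6.64 and 6.34 in siRNA-2 heavy arrays, and 6.56, 6.51, 6.42 and 6.47 in control heavy arrays. All siRNA-1 arrays were above all others, and the difference from control was 0.75 ± 0.12 (limma adjusted p = 0.00248) for siRNA-1 and -0.01 ± 0.12 for siRNA-2. The difference of siRNA-1 minus siRNA-2 was itself called, at 0.76 ± 0.13 (limma adjusted p = 0.00346, where 8.75% of all clusters were called). In light polysomes, where siRNA-1 against control was not called, POLR3GL averaged 6.86 for siRNA-1 and 6.41 for control. Its shift of heavy minus light under siRNA-1 was 0.30 ± 0.24 and was not called.

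POLR2G went the other way. Its signal was 6.21, 6.13 and 6.49 in siRNA-1 heavy arrays, 7.38, 7.56 and 7.38 in siRNA-2 heavy arrays, and 6.84, 7.22, 6.85 and 7.24 in control heavy arrays. The siRNA-1 arrays were lowest and the siRNA-2 arrays highest, with no overlap between the 3 groups. The difference from control was -0.76 ± 0.14 for siRNA-1 (limma adjusted p = 0.00501) and 0.40 ± 0.14 for siRNA-2 (limma adjusted p = 0.376), and siRNA-1 minus siRNA-2 was -1.16 ± 0.15 (limma adjusted p = 0.000614). In light polysomes, where siRNA-1 against control was not called, POLR2G averaged 6.17 ± 0.73 for siRNA-1 and 6.78 ± 0.07 for control (SD). Its shift of heavy minus light under siRNA-1 was -0.16 ± 0.27 (SE) and was not called.

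POLR3A was the third, at 8.29, 8.45 and 8.43 in siRNA-1 heavy arrays, 7.82, 7.86 and 8.21 in siRNA-2 heavy arrays, and 7.64, 7.59, 8.07 and 7.998 in control heavy arrays. The siRNA-1 arrays were above all others, with 0.57 ± 0.15 over control (limma adjusted p = 0.0311), whereas siRNA-2 differed from control by 0.14 ± 0.15. The siRNA-1 call was lost without control replicate 1 (0.51), control replicate 2 (0.49), siRNA-1 replicate 2 (0.54), siRNA-1 replicate 4 (0.55) or replicate 1 of every group (0.56).

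**Figure D4:**
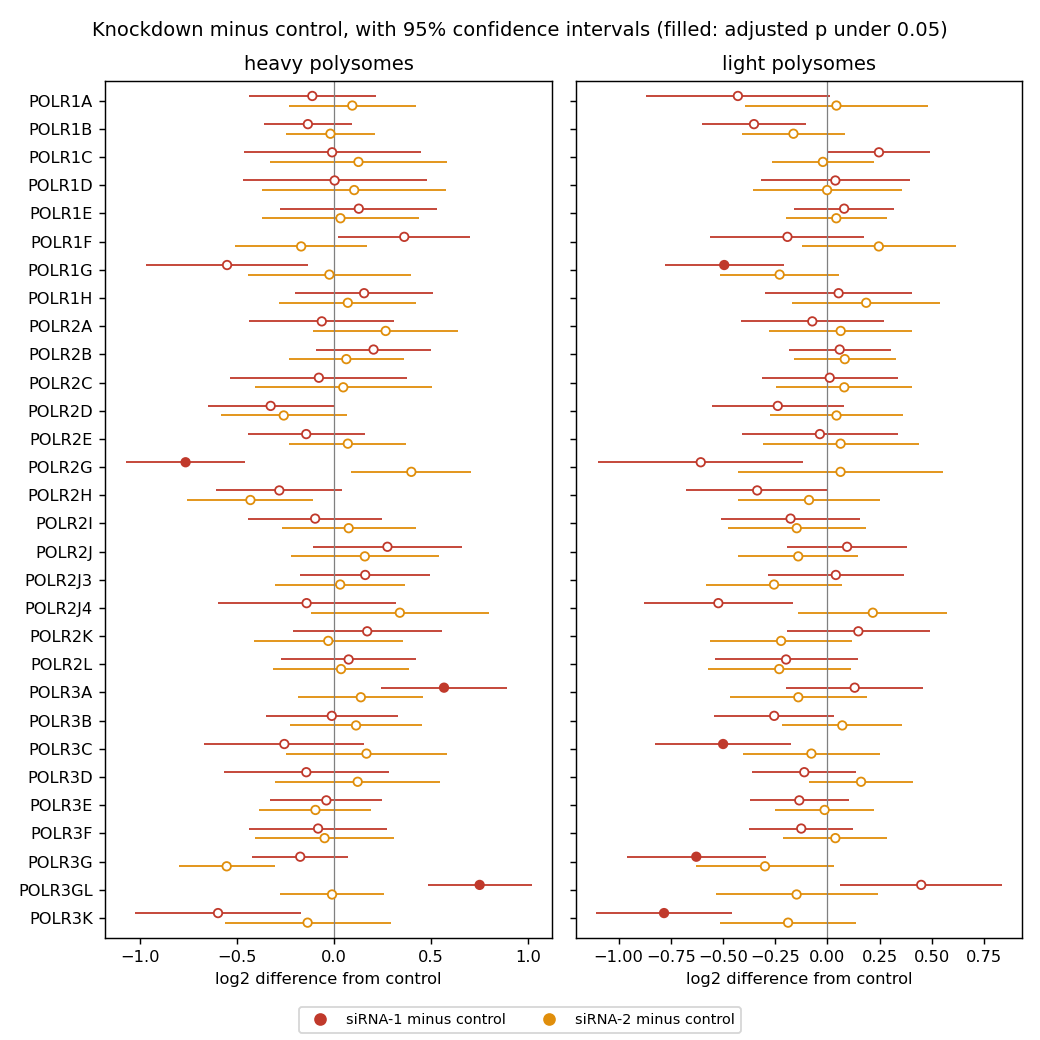
Log2 difference from control (horizontal axes) of the 30 subunit mRNAs in heavy and light polysomes, for siRNA-1 (red) and siRNA-2 (orange), with 95% confidence intervals. Filled points passed a limma adjusted p under 0.05: 3 for siRNA-1 in heavy, 4 for siRNA-1 in light and 0 for siRNA-2 in either fraction. The fits shown have no replicate block.

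With siRNA-1 in light polysomes 4 members were called, all lower, where 11.6% of all clusters were called and 6.32% were called as lower. POLR3K had 8.004, 7.84 and 8.01 in siRNA-1 light arrays, 8.64, 8.37 and 8.63 in siRNA-2 light arrays, and 8.53, 8.59, 9.16 and 8.66 in control light arrays. The siRNA-1 arrays were below all others, and the difference from control was -0.78 ± 0.15 (limma adjusted p = 0.00348). In heavy polysomes siRNA-1 minus control was -0.60 ± 0.20 (limma adjusted p = 0.0847).

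POLR3G had 7.02, 7.03 and 7.31 in siRNA-1 light arrays, 7.38, 7.16 and 7.79 in siRNA-2 light arrays, and 7.74, 7.73, 7.97 and 7.55 in control light arrays. The siRNA-1 arrays were below all control arrays and overlapped those of siRNA-2, with a difference from control of -0.63 ± 0.16 (limma adjusted p = 0.0155) that was not called without siRNA-1 replicate 1 (-0.58), siRNA-1 replicate 2 (-0.58) or replicate 1 of every group (-0.58). In heavy polysomes the siRNA-2 arrays, at 7.59, 7.49 and 7.32, were below all 4 control arrays, at 7.97, 8.07, 7.95 and 8.08, a difference of -0.55 ± 0.11 (limma adjusted p = 0.0617).

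POLR1G, an RNA polymerase I subunit of the initiation dimer, had 7.46, 7.45 and 7.65 in siRNA-1 light arrays and 7.85, 8.07, 7.86 and 8.28 in control light arrays. The groups did not overlap, and the difference was -0.49 ± 0.13 (limma adjusted p = 0.0253), not called without siRNA-1 replicate 1 (-0.46), siRNA-1 replicate 2 (-0.46), control replicate 2 (-0.48), control replicate 4 (-0.41) or replicate 1 of every group (-0.52). In heavy polysomes siRNA-1 minus control was -0.55 ± 0.19 for POLR1G (limma adjusted p = 0.108). POLR3C, of the initiation heterotrimer, had 8.84, 8.71 and 9.16 in siRNA-1 light arrays and 9.23, 9.16, 9.64 and 9.58 in control light arrays, groups that met at 9.16. Its difference of -0.50 ± 0.15 (limma adjusted p = 0.0472) was lost without siRNA-1 replicate 1 (-0.47), siRNA-1 replicate 2 (-0.40), control replicate 3 (-0.42), control replicate 4 (-0.44), any replicate of siRNA-2 (-0.50, with a wider error) or replicate 1 of every group (-0.52), and with repeated quantile normalization (-0.45).

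**Figure D5:**
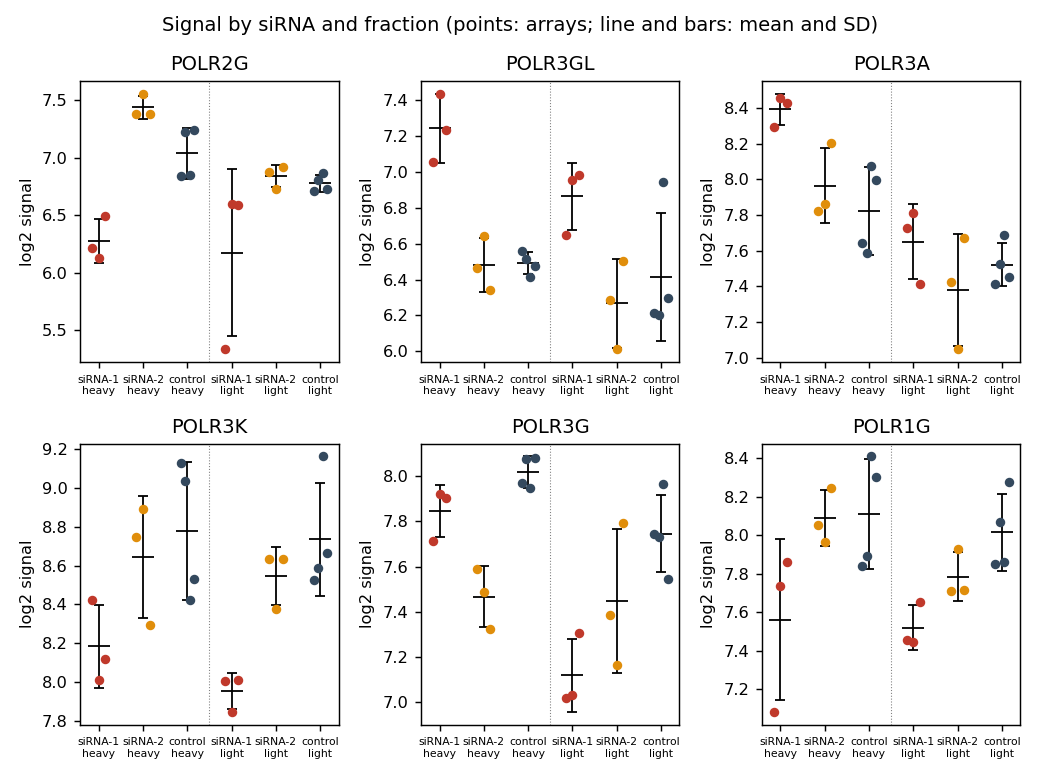
Log2 signal (vertical axes) of 6 subunit mRNAs by siRNA and fraction, heavy groups left of the dotted line and light groups right of it, with points for arrays and bars for the mean and SD. In heavy polysomes the siRNA-1 points lie above or below all others for POLR2G (6.13 to 6.49), POLR3GL (7.06 to 7.44) and POLR3A (8.29 to 8.45). In light polysomes they do so for POLR2G (5.33 to 6.59), POLR1G (7.45 to 7.65) and POLR3K (7.84 to 8.01).

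With siRNA-2 no member was called in heavy polysomes, where 0.415% of all clusters were, or in light polysomes, where 0.41% were (limma). At an unadjusted p under 0.05 there were 3 members in heavy (8.63% of all clusters) and 0 in light polysomes (9.8%). With a replicate block some members were called for siRNA-2 in heavy polysomes, as given at the end. Set against each other, the siRNAs differed in heavy polysomes at POLR2G and POLR3GL and in light polysomes at POLR2J4 and POLR3K, where 12.3% of all clusters were called. POLR2J4 had 4.96, 4.99 and 5.52 in siRNA-1 light arrays and 5.68, 5.995 and 6.01 in siRNA-2 light arrays, a difference of -0.74 ± 0.18 (limma adjusted p = 0.0131) that was not called without siRNA-1 replicate 1 (-0.64), siRNA-1 replicate 2 (-0.66), siRNA-2 replicate 3 (-0.68) or replicate 1 of every group (-0.75). POLR3K differed by -0.59 ± 0.16 (limma adjusted p = 0.0264), which was not called without siRNA-1 replicate 2 (-0.54), siRNA-1 replicate 4 (-0.62), siRNA-2 replicate 1 (-0.55), siRNA-2 replicate 3 (-0.55) or replicate 1 of every group (-0.58).

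Genes that work with the polymerases were followed in the same fits, where 22.4% of all clusters were higher and 20.7% lower in heavy polysomes. Of 26 measured general and elongation factors of RNA polymerase II, 14 were higher and 4 lower in heavy polysomes, with a median of 0.34. GTF2A2, a subunit of TFIIA, was lower by -1.40 ± 0.11 (limma adjusted p = 1.93e-07). GTF2E2, the beta subunit of TFIIE, was higher by 0.94 ± 0.09 (limma adjusted p = 8.27e-07). Of 16 RNA polymerase III initiation genes, 9 were higher and 5 lower (median 0.33). GTF3A, the factor that binds 5S genes, was at -1.44 ± 0.09 (limma adjusted p = 4.14e-08). GTF3C6, a subunit of TFIIIC, was at -1.60 ± 0.11 (limma adjusted p = 9.57e-08). Of 8 genes listed under RNA polymerase I initiation, 3 were higher and 1 lower (median 0.21). Among them were TOP1, whose part in initiation was not examined here, at 0.76 ± 0.09, and UBTF, which binds ribosomal DNA, at 0.36 ± 0.08 (limma adjusted p = 7.81e-06 and 0.00136).

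Of 14 polymerase assembly genes, 6 were higher and 2 lower in heavy polysomes (median 0.10), against 22.4% and 20.7% of all clusters. The ATPase RUVBL1 was at 1.14 ± 0.13 and the prefoldin-like UXT at -0.84 ± 0.11 (limma adjusted p = 4.22e-06 and 1.34e-05). Of 6 mitochondrial transcription genes, 3 were higher and 1 lower (median 0.26), with TFB2M at 0.51 ± 0.08 and MTERF1 at -0.51 ± 0.09 (limma adjusted p = 7.29e-05 and 0.000161).

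For the mean of both siRNAs against control, 0 genes of these lists were called in heavy or light polysomes (limma), and the smallest p in light polysomes was that of RPAP3, a polymerase assembly factor, at -0.38 ± 0.10 (limma adjusted p = 0.056). With siRNA-1 against control, 7 list genes were called in light polysomes, where 11.6% of all clusters were. Of these, GTF2B, the general factor TFIIB (0.47 ± 0.13), CCNT1, the cyclin of the elongation factor P-TEFb (0.51 ± 0.15), and TAF1C, a subunit of the RNA polymerase I selectivity factor (0.64 ± 0.14), were higher (limma adjusted p = 0.0241, 0.0351 and 0.00689). GTF2E2 (-0.86 ± 0.14), GTF2A1, the large subunit of TFIIA (-0.44 ± 0.12), TCEA1, an elongation factor (-0.55 ± 0.16), and RPAP3 (-0.60 ± 0.12) were lower (limma adjusted p = 0.00095, 0.0264, 0.0382 and 0.00427). By list, the calls in light polysomes were 2 higher and 3 lower of 26 RNA polymerase II genes. They were 1 higher of 8 RNA polymerase I genes and 1 lower of 14 assembly genes. Of 16 RNA polymerase III and 6 mitochondrial genes 0 were called. In heavy polysomes, where 8.91% of all clusters were called, 2 list genes were called with siRNA-1. They were 1 of 26 RNA polymerase II and 1 of 16 RNA polymerase III genes. In neither fraction did the calls exceed the share of all clusters. CCNH, the cyclin of TFIIH, was higher by 0.56 ± 0.16 and MAF1, a repressor of RNA polymerase III, differed by -0.50 ± 0.13 (limma adjusted p = 0.0465 and 0.0316). With siRNA-2 against control 0 list genes were called in either fraction (limma).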

How the data were processed

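RNA from heavy and light polysomes of BE(2)-C cells was hybridized to Clariom S arrays (20 arrays, 100 ng of RNA each). The authors deposited log2 values, 1 per probe set, after RMA in the oligo package, that is, background correction, quantile normalization and summary over probes. The submitters' processing notes also list limma 3.38.3 under R 3.5.3. The genome build was not given in the sources used here, nor was it stated whether both fractions were normalized together. Because arrays were brought to a common distribution, total polysomal RNA was not measured, and the number of arrays limits the precision.

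Of the 27189 probe sets, 5741 that were controls or otherwise not transcript clusters were dropped. The tests covered the other 21448, and the platform annotation gave a single symbol to 17709 of them and no symbol to 3739. Groups and replicate numbers came from sample titles. R 4.3.3 and limma 3.58.1 (lmFit, eBayes, Benjamini-Hochberg over all clusters, called at adjusted p under 0.05) were used. Heavy against light was fitted on the 10 within-transfection differences, and knockdown within the 10 heavy or 10 light arrays. The fits were first tested on simulated data.

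Named genes were all members and up to 2 genes with the smallest p per pathway list and comparison. The members and lists were chosen with earlier results of these data known. Alternatives covered the pairing, repeated quantile normalization, the dimmest 25% of clusters left out, an intensity trend, joined siRNAs, a 1.5-fold threshold at an unadjusted p under 0.05 and left-out transfections. Promoter sequences came from RefSeq (GRCh38.p14), matched by symbol for 21 of 30 members.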

Additional observations from a re-analysis of the deposited data

Results flagged for a closer look

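In 2 of 90 groups of 4 control values tested, 1 sample lay far from the others, and chance flags about 1 in 20 such groups. POLR3C had a heavy minus light difference of -0.351 in control replicate 1, against -0.0705 to -0.0344 in the other 3 control transfections. POLR3GL had a signal of 6.94 in the light array of control replicate 3, against 6.20 to 6.30 in the other 3, and without that replicate its heavy minus light difference was called (0.29). The siRNAs differed from each other in heavy polysomes at POLR2G (-1.16, limma adjusted p = 0.000614) and POLR3GL (0.76, limma adjusted p = 0.00346). They differed in light polysomes at POLR2J4 (-0.74, limma adjusted p = 0.0131) and POLR3K (-0.59, limma adjusted p = 0.0264), in each case as siRNA-1 minus siRNA-2.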

How the results depend on the processing

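Heavy and light arrays of the same number were correlated in their deviations at -0.06 to 0.23 over 10 pairs, 1 of them above 0.1, and arrays of 1 fraction sharing a number across siRNAs at -0.10 to 0.62 over 16 pairs, 10 of them above 0.1. Not every pair was above 0.1, and the labels do not say that a number marks a shared batch or day. The knockdown values of the report come from fits without a block. With no replicate block (heavy and light not paired) the mean of the 3 groups again gave 13 higher and 9 lower, siRNA-1 11 and 7, siRNA-2 6 and 8, and control 7 and 8, and 0 shifts. With the replicate block in the knockdown fits, heavy polysomes gave 2 higher and 4 lower for the mean of both siRNAs (0 and 0 without it), 5 lower for siRNA-1 (1 without it) and 2 lower for siRNA-2 (0 without it), and light polysomes gave 1 lower for the mean (0 without it) and 1 higher for siRNA-1 (0 without it). For siRNA-1 minus siRNA-2 the block gave 3 higher and 4 lower in heavy (1 and 1 without it), and 1 higher and 1 lower in light polysomes (0 and 2 without it), where POLR3K was not called (-0.49, limma adjusted p = 0.0586). The cause of these differences was not tested.

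Repeated quantile normalization gave 5 higher in control heavy against light (8 in the report) and 2 lower for the mean knockdown in light polysomes (0), as did leaving out the dimmest 25% of clusters (2) and an intensity trend (2). Leaving out those clusters also gave 1 lower for siRNA-2 in heavy, and with either of these settings 1 was higher for siRNA-1 minus siRNA-2 in light polysomes (0). Without replicate 1 of every group, siRNA-1 gave 1 higher in heavy (2) and 1 lower in light (4), and siRNA-1 minus siRNA-2 gave 2 higher and 2 lower in heavy (1 and 1) and 0 lower in light (2). Medians over members put large minus small at 0.607 for siRNA-2 and 0.432 for control. POLR1F, uncalled in heavy minus light, turned to -0.0074 with repeated normalization and -0.021 without replicate 1 of every group, and POLR3C, also uncalled, to -0.050 with repeated normalization and, with 1 transfection left out, ranged between -0.00059 (without siRNA-2 replicate 2) and 0.0785 (without siRNA-2 replicate 1). The cause was not tested.

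Leaving out 1 transfection at a time gave 12 to 15 higher and 8 to 9 lower for the mean of the 3 groups, 5 to 10 higher and 5 to 8 lower in siRNA-1, 2 to 8 and 6 to 9 in siRNA-2, and 2 to 8 and 7 to 8 in control. In heavy polysomes it gave 1 to 2 higher and 1 to 2 lower for siRNA-1 (2 lower without control replicate 3), and 1 higher and 1 to 2 lower for siRNA-1 minus siRNA-2 (2 lower without siRNA-1 replicate 1). In light polysomes it gave 0 to 1 lower for the mean (1 without siRNA-2 replicate 3), 0 to 1 higher (1 without control replicate 3) and 1 to 6 lower for siRNA-1 (1 without siRNA-1 replicate 1 or 2, 2 without control replicate 4), and 0 to 1 higher and 0 to 3 lower for siRNA-1 minus siRNA-2. Large minus small was 0.75 to 0.85 for the mean of the groups, 0.69 to 0.99 for siRNA-1, 0.74 to 0.91 for siRNA-2 and 0.64 to 0.85 for control. No shift was called in any repeat. Over single members, 569 values kept their call, 39 lost it, 3 gained it and 4 changed sign. Classes by protein length, and the lowest cluster of a repeated symbol, were not run, since no protein lengths were used here and no member was repeated.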
